A study of Homo sapiens with 6 samples.

Results

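The 10 genes described here belong to the S100 family of small calcium-binding proteins and were measured by RNA-seq in LN229, an established human glioblastoma cell line. They were taken by gene symbol, namely S100A1, S100A2, S100A3, S100A4, S100A6, S100A10, S100A11, S100A13, S100A16 and S100B, from a table of 24480 distinct symbols. There were 3 libraries of LN229 cells transduced to overexpress LACTB, a mitochondrial serine beta-lactamase-like protein, and these were set against 3 libraries of LN229 cells transduced with vector alone. Both groups are transduced cells of 1 line, and the labels name neither the vector, nor any selection, nor a clone, nor the time after transduction. The comparison asked what LACTB overexpression changes in glioma cells.

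S100 proteins are short chains with a pair of EF-hand loops that mostly work as dimers. On binding calcium they expose a surface that grips other proteins, and they act as sensors inside the cell and, once released, as signals outside it. S100B is the member best known in brain, where astrocytes make much of it, and it is also made by Schwann cells and melanocytes. S100A10 is the exception in the family, since its loops have lost calcium binding and it is held in place by annexin A2. Most family genes lie side by side on the long arm of chromosome 1, and S100B lies alone on chromosome 21.

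Of the 10 genes, 1 rose and 4 fell with LACTB, and 5 did not pass the test. S100A2 was 2.68-fold higher in LACTB libraries, and S100B stood at 0.429 of its vector level. S100A13, S100A1 and S100A4 were also lower, at 0.613, 0.740 and 0.796 of their vector levels. S100A6, by far the most abundant member, did not pass, nor did S100A16, S100A11, S100A10 or S100A3. Values are normalized read counts as deposited, tested with limma on log2(value + 1) at a Benjamini-Hochberg adjusted p under 0.05 over 12939 genes. In that fit 51.9% of all genes tested passed, 27.4% being higher and 24.6% lower, so 5 calls among 10 genes is near the background. The median log2 difference was -0.13 over the 10 genes and 0.05 over all genes tested. Leaving out LACTB library 1, 2 or 3 left 1 rise and 2 falls, while 21.7% to 23.6% of all genes rose and 19.6% to 21.1% fell. Leaving out vector library 1 gave 2 rises and 3 falls, against 29.9% and 26.8% of all genes.

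The sequences upstream of 3 chromosome 1 members are shown because these close neighbours gave different results, S100A2 being higher with LACTB, S100A13 lower and S100A16 not passing. They are RefSeq sequences on GRCh38.p14, minus strand, 5′ to 3′, limited to bases outside annotated exons. Capitals mark a GC box (GGGCGG or its reverse complement CCGCCC) or an AP-1 site (TGANTCA, its own reverse complement). The S100A2 stretch is chr1:153565866-153566094 and ends 22 bases before the start site. The S100A16 stretch is chr1:153609356-153609605 and ends 1 base before the start site. The S100A13 stretch is chr1:153634398-153634611 and ends 37 bases before the start site. That RefSeq start, 153634361, lies outside the GENCODE span of S100A13, 153618787 to 153631360. The S100A2 and S100A16 stretches lie inside the GENCODE spans of their own genes, 153561108 to 153567890 and 153606886 to 153613145. Which starts are used in LN229 is unknown.
S100A2: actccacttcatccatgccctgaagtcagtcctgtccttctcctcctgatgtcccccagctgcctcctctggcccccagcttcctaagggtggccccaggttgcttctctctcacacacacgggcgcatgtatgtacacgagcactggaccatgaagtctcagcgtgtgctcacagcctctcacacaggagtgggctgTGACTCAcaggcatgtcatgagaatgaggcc
S100A16: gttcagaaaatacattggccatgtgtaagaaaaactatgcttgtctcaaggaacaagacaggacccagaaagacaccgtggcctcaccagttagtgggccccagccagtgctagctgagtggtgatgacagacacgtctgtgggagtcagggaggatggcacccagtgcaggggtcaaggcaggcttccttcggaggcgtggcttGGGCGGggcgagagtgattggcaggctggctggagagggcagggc
S100A13: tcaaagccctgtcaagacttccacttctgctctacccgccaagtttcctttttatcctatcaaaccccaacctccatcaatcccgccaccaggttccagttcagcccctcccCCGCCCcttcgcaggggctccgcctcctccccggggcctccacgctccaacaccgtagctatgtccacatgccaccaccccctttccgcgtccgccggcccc
The S100A2 stretch holds an AP-1 match beginning 52 bases before the start and no GC box. The S100A16 and S100A13 stretches hold a GC box match beginning 45 and 138 bases before their starts. The promoter table matched 9 of the 10 members with 13 windows of 250 bases before a start. Among these windows 6 held a GC box, 2 an AP-1 site, 2 a TATA box (TATAAA, or TTTATA on the other strand) and 1 a TEAD site (CATTCC, or GGAATG). Over 34788 different promoter windows of the same length the shares were 42.6%, 6.59%, 10.8% and 11.9% in that order. Each of the 3 printed genes has another listed start, and the printed stretches are those with the marked matches. The S100A2 window at start 153563887 and the S100A13 window at start 153627239 held none of these motifs. The S100A13 window at start 153627505 held a TATA box and no GC box. The S100A16 window at start 153613137 held a TEAD site and no GC box. Both strands were searched, no matches of different motifs overlapped in the printed stretches, and a match is a description of letters only.

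LACTB itself read 4268, 4078 and 4203 normalized counts in LACTB libraries and 458, 515 and 393 in vector libraries, so the targeted gene followed the labels. Column totals ran from 34907394 to 35683869 in LACTB libraries and from 38049489 to 41384595 in vector libraries. The reads behind each column are unknown, which allows no counting interval. The labels do not say how many cultures the libraries came from, so p-values measure only how far these libraries differ among themselves, and that spread may be technical. Astrocyte markers summed to between 701 and 830 normalized counts in LACTB libraries and between 485 and 620.0 in vector libraries, and GFAP, the astrocyte filament protein, read 119 to 126 in LACTB libraries and 72.3 to 75.7 in vector libraries. Of the 6 astrocyte markers 3 passed the filter on low values. GFAP and GJA1, which makes up most of the sum, were higher. The glutamate transporter gene SLC1A3 read lower, at 28.96 ± 6.87 in LACTB libraries and 91.2 ± 7.36 in vector libraries. VIM, NES and CD44, markers of a mesenchymal or progenitor state, summed to between 92392 and 96609 in LACTB libraries and between 64301 and 79366 in vector libraries. SOX10, a transcription factor of neural crest and oligodendrocyte lineages, read 40669 to 42672 in LACTB libraries and 44693 to 59364 in vector libraries. The labelled line thus showed high VIM, NES and SOX10 and little GFAP. Of 5 fibroblast markers 2 were higher (LUM and COL1A1, log2 differences 1.85 and 0.66) and DCN was lower (-0.72). COL1A2 read lower, at 36.4 ± 13.1 in LACTB libraries and 220 ± 65.3 in vector libraries. SLC1A3 and COL1A2 passed the filter on low values, a mean of at least 37.7 normalized counts, only through the vector libraries. Their differences are therefore given with no test. The sum of the 5, to which LUM gave most in LACTB libraries, ran from 1608 to 1702 in LACTB libraries and from 1038 to 1190 in vector libraries. The 4 epithelial markers, mostly the keratin KRT18, summed to between 2774 and 3256 in LACTB libraries and between 5866 and 7161 in vector libraries.

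**Figure D1:**
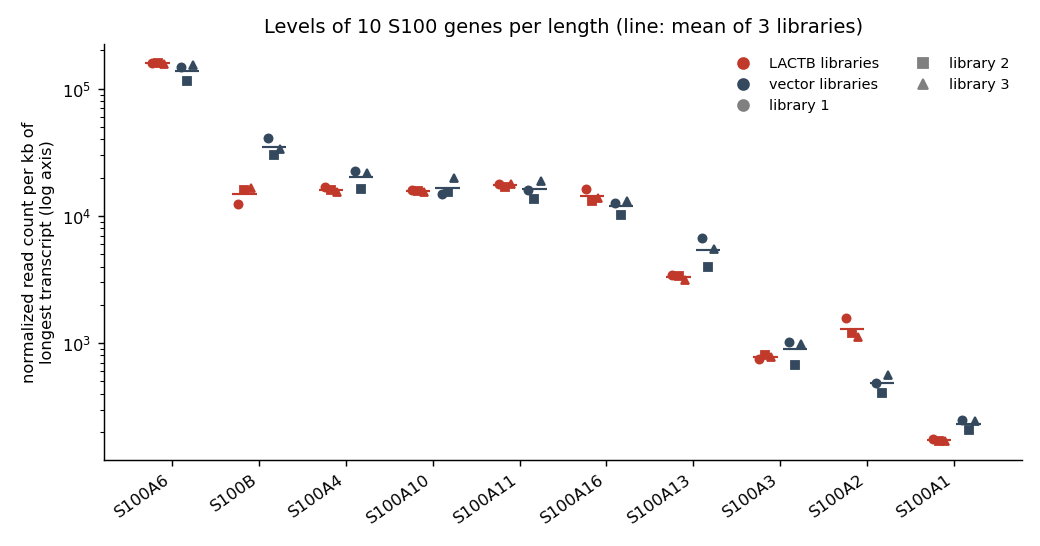
Normalized read count per kb of longest transcript (log axis) for 10 S100 genes, ordered by their mean in vector libraries, with 1 point per library and a line at each mean of 3. S100A6 stands above all others in both groups, and S100B comes next in vector libraries but is one of 5 members at similar levels in LACTB libraries.

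Per kb of longest transcript, S100A6 was the highest member in both groups, at 158104 ± 2177 normalized counts per kb in LACTB libraries and 138985 ± 20782 in vector libraries (SD, n = 3 each). S100A6, also called calcyclin, is linked to proliferation and binds annexins and calcyclin-binding protein. In LACTB libraries the next 5 members by level per kb were S100A11, S100A4, S100A10, S100B and S100A16, with means from 17450 to 14411, and each overlapped the next one in the order. In vector libraries S100B came second at 34787 ± 5747 per kb and overlapped neither S100A6 above it nor S100A4 below it. S100A4, S100A10 and S100A11 followed at 20154, 16696 and 16212 per kb, and neighbours among these 3 overlapped. S100A16, S100A13, S100A3, S100A2 and S100A1 followed without overlap between neighbours, S100A1 being last at 233 ± 22.7 per kb. S100A1 was last in LACTB libraries too, at 173 ± 3.44 per kb, while S100A2 stood above S100A3 there and below it in vector libraries. With merged exon length in place of the longest transcript, S100A10 and S100A11 exchanged places in the vector order and the other 8 kept theirs. The transcripts expressed are unknown, so the order holds for these lengths only. In counts not divided by length, S100A1 averaged 611 ± 59.6 and S100A2 483 ± 79.8 in vector libraries. The last place of S100A1 there thus rests on the length used. All 10 members together made up 0.533% to 0.539% of the LACTB columns and 0.439% to 0.523% of the vector columns. S100A6 took 56.2% to 56.9% of that sum in LACTB libraries and 46.4% to 47.7% in vector libraries.

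S100A2 is a mostly nuclear member known from epithelial cells, where it binds p53. Its gene spans 153561108 to 153567890 on chromosome 1 (GRCh38, minus strand). It read 1577, 1202 and 1107 normalized counts in LACTB libraries and 483, 403 and 562 in vector libraries. The lowest LACTB library was well above the highest vector library. The log2 difference was 1.42 (SE 0.16, 95% interval 1.09 to 1.75, adjusted p = 2.2e-07). Across 16 alternative settings it stayed called, between 1.27 and 1.79.

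S100B spans 46598962 to 46605208 on chromosome 21 (minus strand). It read 11989, 15521 and 15986 normalized counts in LACTB libraries and 39915, 29009 and 32410 in vector libraries. Every LACTB library was below every vector library by a wide margin. The log2 difference was -1.22 (SE 0.14, 95% interval -1.50 to -0.94, adjusted p = 2.1e-07), and it stayed called under all 16 alternatives, between -1.35 and -0.89. Of 26 neighbouring tested genes on chromosome 21, the median log2 difference was -0.31, and -0.16 once a trend on transcript length and GC content was removed. Of 8 neural crest and melanocytic marker genes 5 were tested, and of these 4 fell and 1 did not pass. The sum of the 8 ran from 45694 to 49885 normalized counts in LACTB libraries and from 54721 to 66743 in vector libraries, most of it SOX10. The fall of SOX10 (-0.31, adjusted p = 0.035) was lost with equal column totals (-0.12, adjusted p = 0.37) and turned to 0.04 with length and GC removed. MITF, the melanocyte master factor, averaged 485 ± 49.9 in LACTB libraries and 1369 ± 203 in vector libraries. Below the filter and not tested, TYR, the first enzyme of melanin synthesis, was listed at 0 in all 3 LACTB libraries and at 17.3 to 40.7 in vector libraries, and TYRP1, another melanin enzyme gene, at 18.0 to 32.4 in LACTB libraries and 0.0601 to 12.5 in vector libraries. The part of these marker changes in the S100B result was not tested, and fewer cells of a type and less RNA per cell cannot be told apart in bulk libraries.

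S100A13 helps to export FGF1 and interleukin 1 alpha, which lack a signal peptide. It read 7491, 7407 and 6804 normalized counts in LACTB libraries and 14569, 8713 and 12091 in vector libraries. The groups did not overlap, though vector library 2 came close to LACTB library 1. The log2 difference was -0.67 (SE 0.14, 95% interval -0.97 to -0.38, adjusted p = 0.000459), and over 16 alternatives it stayed called, between -0.88 and -0.37, the last with length and GC removed (adjusted p = 0.029).

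S100A1, which in heart muscle regulates calcium release and uptake, read 463, 446 and 448 normalized counts in LACTB libraries and 649, 543 and 642 in vector libraries. The groups did not overlap, and the log2 difference was -0.43 (95% interval -0.74 to -0.12, adjusted p = 0.020). The call was lost with equal column totals (-0.24, adjusted p = 0.18), with length and GC removed (-0.13, adjusted p = 0.37), and when any of the 3 LACTB libraries was left out (adjusted p from 0.052 to 0.075). S100A1 (153627926 to 153632039, plus strand) overlaps S100A13 (153618787 to 153631360, minus strand) on chromosome 1, and the pair share 235 exonic bases, 10.6% of the S100A13 exons and 7.76% of the S100A1 exons. No strand setting is stated for the counting, so reads of the shared bases cannot be assigned to one of them, and their values are uncertain to that extent.

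S100A4, which binds non-muscle myosin IIA and is tied to cell motility, read 12684, 11965 and 11673 normalized counts in LACTB libraries and 17028, 12213 and 16407 in vector libraries. Vector library 2 lay within the LACTB range and the other vector libraries lay above it. The log2 difference was -0.31 (95% interval -0.57 to -0.06, adjusted p = 0.040). This call was the weakest of the 5. With length and GC removed the difference turned to 0.055 (adjusted p = 0.61), and with equal column totals and with quantile normalization it was -0.12 (adjusted p = 0.35 and 0.33). Limma without trend and robust settings lost the call too (adjusted p = 0.11), and leaving out any library other than vector library 2 also ended it, with adjusted p from 0.059 to 0.16.

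Among the members that did not pass, S100A6 read 107434, 107052 and 104726 normalized counts in LACTB libraries and 100262, 77458 and 102890 in vector libraries. All LACTB libraries were above all vector libraries, by a small margin over vector library 3. The log2 difference was 0.20 (95% interval -0.06 to 0.46, adjusted p = 0.19). An antisense gene listed as BX470102.1 shares 23 exonic bases with S100A6 and read at most 70.8 normalized counts in any library. S100A16, a widely expressed member, read 18511, 15119 and 15915 in LACTB libraries and 14444, 11557 and 14907 in vector libraries, again without overlap and with a narrow gap. Its log2 difference was 0.28 (95% interval 0.02 to 0.54, adjusted p = 0.062), and 0.33 without vector library 1 (adjusted p = 0.023). S100A11, a partner of annexin A1, read 10588, 9949 and 10559 in LACTB libraries and 9550, 8101 and 11238 in vector libraries. These ranges overlapped, and the log2 difference was 0.12 (95% interval -0.13 to 0.37, adjusted p = 0.43). Processed pseudogenes of S100A11 are annotated on another chromosome, so its value is uncertain where reads match both.

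S100A10 read 19201, 18745 and 18526 normalized counts in LACTB libraries and 17912, 18548 and 23746 in vector libraries, with overlapping groups. Its log2 difference was -0.08 (95% interval -0.33 to 0.17, adjusted p = 0.60). S100A3, known from the hair cuticle, read 645, 686 and 667 in LACTB libraries and 874, 580 and 845 in vector libraries, with vector library 2 below all LACTB libraries. Its log2 difference was -0.18 (95% interval -0.50 to 0.15, adjusted p = 0.35), and -0.37 without vector library 2 (adjusted p = 0.035). The groups did not overlap for 6 of the 10 members, 3 in each direction, while they did not overlap for 59.7% of all genes tested.

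**Figure D2:**
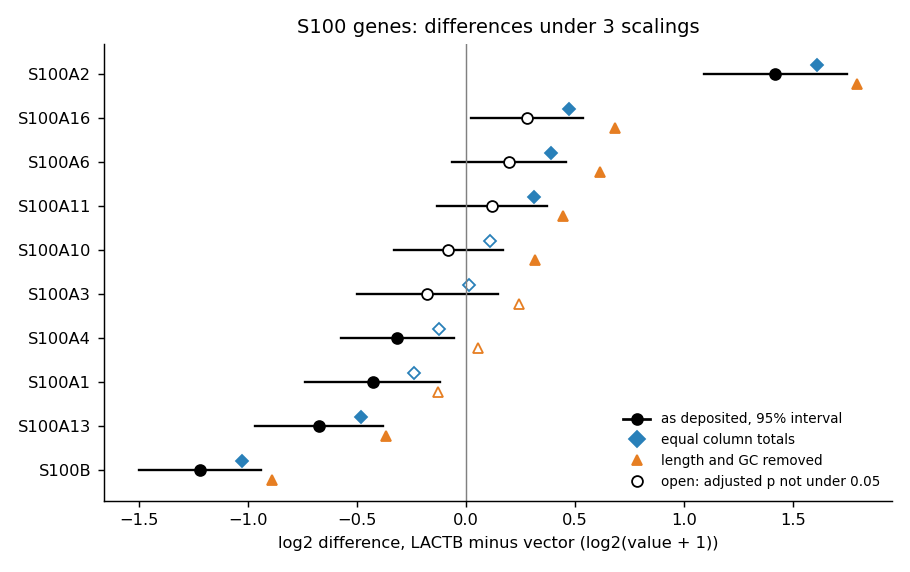
Log2 difference, LACTB minus vector, for each S100 gene. Circles with 95% intervals are the values as deposited, diamonds those with equal column totals and triangles those with a length and GC trend removed, and filled symbols passed the test. S100A2, S100A13 and S100B keep a filled symbol on one side of 0 under all 3.

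The plot of differences under 3 scalings shows how far the other members depended on the scaling. S100 transcripts are short and GC-rich, with a median longest transcript of 984.5 bases and a median GC content of 55.7%, against 3623 bases and 48.3% for the genes tested. With a spline on length and GC removed from every library, 5 members were higher and 2 lower, and the median of the 10 was 0.28, against 0.01 for all genes. The 5 were S100A2, S100A16 (0.68), S100A6 (0.62), S100A11 (0.44) and S100A10 (0.32, adjusted p = 0.012), and the 2 were S100B and S100A13. In that fit 23.7% of all genes were higher and 24.9% lower. With equal column totals, which moved the median of all genes to 0.24, 4 members were higher and 2 lower, and the median of the 10 was 0.06. In that fit 38.4% of all genes were higher and 14.8% lower. Quantile normalization gave 4 higher and 3 lower, against 24.8% and 25.5% of all genes. Around each of the 9 chromosome 1 members, which lie between 151982915 and 153632039, the 42 neighbouring tested genes outside the family had median log2 differences from -0.20 to -0.11, and from -0.015 to -0.004 with length and GC removed. Of these 9, 7 lie within 97441 bases, and that stretch holds the rise of S100A2 beside the falls of S100A4, S100A13 and S100A1.

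**Figure D3:**
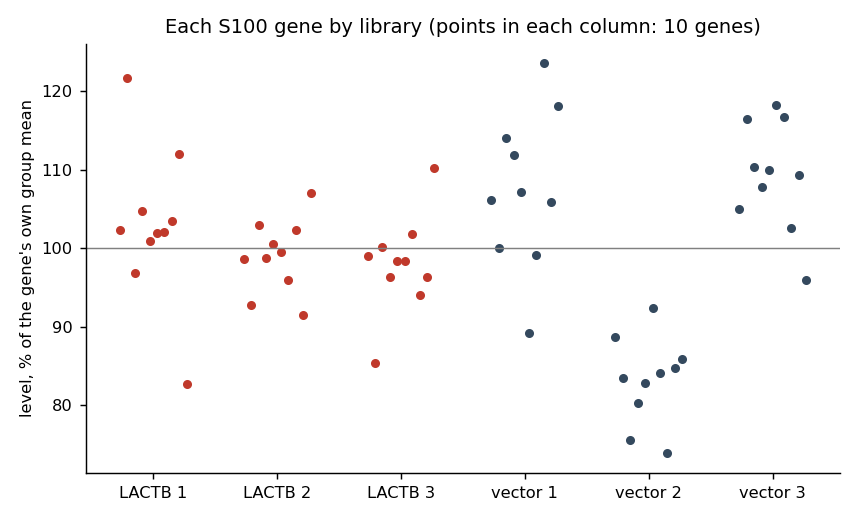
Level of each S100 gene in each library as a percentage of the mean of its own group, with 10 points per library. The points of vector library 2 all lie below 100%, between 73.9% and 92.4%.

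Within each group 1 library gave an extreme value for most members. LACTB library 1 gave the highest LACTB value for 8 of the 10, all but S100A3 and S100B, against 35.9% of all genes tested. Its values ran from 82.7% to 121.7% of the LACTB mean of each gene, with a median of 102.2%, so most exceeded that mean only slightly. Vector library 2 gave the lowest vector value for 9 of the 10, all but S100A10, whereas it was the lowest for 29.5% of all genes tested. Its values ran from 73.9% to 92.4% of the vector mean of each gene, with a median of 83.8%. Vector library 1 ran from 89.3% to 123.6% and vector library 3 from 96.0% to 118.3%. The median coefficient of variation of the members was 3.89% over LACTB libraries and 16.4% over vector libraries, against 7.05% and 14.1% for all genes tested. Without vector library 2, 1 member was higher and 5 were lower, S100A3 joining the falls. In that fit 27.1% of all genes tested were higher and 24.8% lower.

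Of 11 other family genes looked for, 7 had a row and 1, S100Z, passed the filter on low values. S100Z on chromosome 5 read 127, 117 and 158 normalized counts in LACTB libraries and 95.5, 53.6 and 42.8 in vector libraries, without overlap. Read from the same fit after its values were seen, its log2 difference was 1.12 (SE 0.28, adjusted p = 0.00228). S100A5, which lies between S100A6 and S100A4, read 13.9 to 27.2 in LACTB libraries and 5.66 to 10.6 in vector libraries, below the filter. S100A14 stayed between 3.25 and 8.80 in LACTB libraries and between 3.26 and 8.46 in vector libraries. S100A8, S100A9, S100P and S100A7L2 were at or near 0, with a highest value of 6.28 in any library. S100A8 and S100A9 are the abundant members of myeloid cells, and the 5 myeloid markers with a row summed to between 20.0 and 27.4 normalized counts in LACTB libraries and between 16.2 and 57.2 in vector libraries.

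Genes of proteins that bind S100 proteins changed in both directions. Of 35 partners listed, 30 passed the filter. Of these, 13 rose (43.3%, against 27.4% of all genes tested), 9 fell (30.0%, against 24.6%) and 8 did not pass, and their median log2 difference was 0.19. With length and GC removed 8 rose (26.7%, against 23.7%) and 13 fell (43.3%, against 24.9%), and the median was -0.08. The 4 with the smallest adjusted p were IQGAP1, ANXA6, SYT1 and PLAT. IQGAP1, a scaffold bound by S100B and S100P, read 4655, 5133 and 4469 normalized counts in LACTB libraries and 1848, 2042 and 1748 in vector libraries (log2 difference 1.34, adjusted p = 4.7e-09). SYT1, a synaptic calcium sensor that joins S100A13 in the FGF1 export complex, rose by 1.66 on the log2 scale (adjusted p = 2.3e-06). ANXA6, an annexin bound by S100A6 and S100B, averaged 3635 ± 58.8 in LACTB libraries and 8366 ± 1192 in vector libraries, and fell by 1.19 (adjusted p = 4.0e-08). PLAT, the tissue plasminogen activator that S100A10 with annexin A2 can bind at the cell surface, averaged 21140 ± 1507 in LACTB libraries and 12337 ± 1176 in vector libraries.

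**Figure D4:**
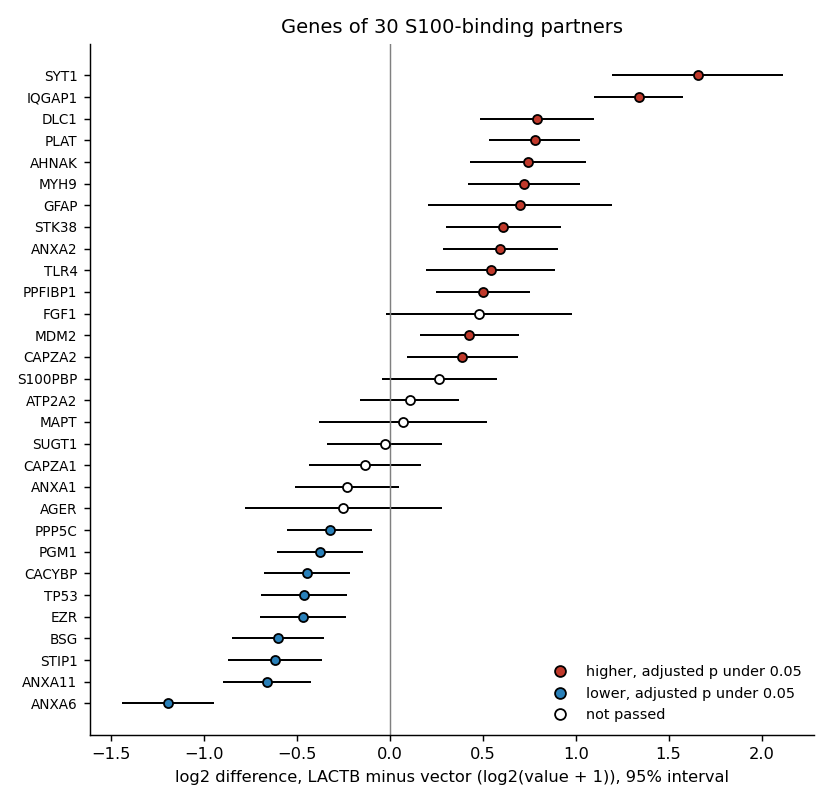
Log2 difference, LACTB minus vector, with 95% intervals for the 30 tested genes of S100-binding partners. Filled points passed the test, 13 of them higher and 9 lower, with SYT1 and IQGAP1 at the top and ANXA6 at the bottom.

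ANXA2, annexin A2, the partner of S100A10, read 104124, 87233 and 94032 normalized counts in LACTB libraries and 84376, 53571 and 54856 in vector libraries, a log2 difference of 0.60 (95% interval 0.29 to 0.90, adjusted p = 0.00196). With length and GC removed both were higher, ANXA2 by 0.41 (adjusted p = 0.026) and S100A10 by 0.32 (adjusted p = 0.012). For ANXA2 the groups did not overlap, and vector library 1 was far above the other vector libraries. Per kb of longest transcript, ANXA2 stood at 1.85, 1.59 and 1.73 times S100A10 in the LACTB libraries and at 1.61, 0.984 and 0.787 times in the vector libraries. AHNAK, a giant scaffold held by the S100A10 and annexin A2 complex, rose by 0.74 (adjusted p = 0.000275), a call that missed the threshold with length and GC removed (0.23, adjusted p = 0.052). MYH9, the heavy chain of the myosin that S100A4 binds, averaged 64649 ± 6910 in LACTB libraries and 39788 ± 8552 in vector libraries and rose by 0.72 (adjusted p = 0.000254). CACYBP, calcyclin-binding protein, fell by 0.45 (adjusted p = 0.00181). ANXA1, the S100A11 partner, differed by -0.23 (95% interval -0.50 to 0.04, adjusted p = 0.15), and by -0.41 with length and GC removed (adjusted p = 0.000493). AGER, the receptor for released S100 proteins, read 107, 106 and 65.9 in LACTB libraries and 108, 119 and 99.0 in vector libraries, and did not pass (-0.25, adjusted p = 0.42).

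Of 33 EF-hand genes listed outside the family, 32 were tested. As deposited 5 of these rose (15.6%, against 27.4% of all genes tested) and 14 fell (43.8%, against 24.6%), and their median log2 difference was -0.24. With equal column totals 7 rose (21.9%, against 38.4%), 6 fell (18.8%, against 14.8%) and the median was -0.04. With length and GC removed 5 rose (15.6%, against 23.7%), 13 fell (40.6%, against 24.9%) and it was -0.13. Rises numbered 3 (9.38%, against 23.6% of all genes tested) without LACTB library 1. Rises numbered 3 (9.38%, against 21.7%) and falls 9 (28.1%, against 19.6%) without LACTB library 2. Falls numbered 8 of the 32 without LACTB library 3, against 19.9% of all genes tested. EFHD1, a mitochondrial calcium sensor, averaged 15.9 ± 4.71 normalized counts in LACTB libraries and 86.4 ± 3.48 in vector libraries. It passed the filter only through the vector libraries, so its difference is given with no test. The counts and shares of falls given for this list still include EFHD1. SPARC, a secreted matrix protein, averaged 35356 ± 2089 in LACTB libraries and 60120 ± 1597 in vector libraries and fell by 0.77, and EFHD2 fell by 0.60. CALU, calumenin of the secretory pathway, rose by 0.80 (adjusted p = 2.3e-05).

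The genes outside the family whose values ran most like a member were read over all 6 libraries, which fall into 2 groups, so the likeness mostly follows the group difference. For S100A2 they were CENPO, MYORG and NOTUM (Pearson r from 0.9955 to 0.9966 on log2(value + 1)). Since r does not measure the size of a change, their log2 differences were unlike, at 0.39, 1.40 and 0.92, against 1.42 for S100A2. NOTUM, an extracellular enzyme that inactivates Wnt proteins, read 389, 317 and 319 normalized counts in LACTB libraries and 188, 153 and 203 in vector libraries. For S100B they were STXBP6, SMIM20 and CRYL1 (r from 0.9969 to 0.9982), with log2 differences of -0.97, -0.44 and -1.21, against -1.22 for S100B. CRYL1 read 1588, 2039 and 2008 in LACTB libraries and 5244, 3526 and 4359 in vector libraries, with library 1 the lowest of the LACTB group and the highest of the vector group, as for S100B.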

How the data were processed

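The deposited table holds 1 signal value per gene symbol and library, a normalized read count that is not whole. Per the submitters' processing notes, HISAT2 and hg38 were used, while the sources used here give no counter, annotation, strandedness or scaling. Values below 1e-10 were set to 0, and 9 repeated symbols kept the row with the higher mean. Genes averaging at least 1 CPM of the mean column total (37.7 normalized counts) were tested on log2(value + 1), which understates changes of low genes, with the limma package (version 3.58.1, R 4.3.3; trended and robust, group as sole term), two-sided, Benjamini-Hochberg adjusted, checked on simulated data. Positions, lengths and GC came from GENCODE release 29, in which 94.8% of symbols matched 1 gene, and promoters from RefSeq. The members and lists were chosen with earlier results of these data known. All members were named, and of each list the 4 called genes with the smallest adjusted p plus 6 partners of members. Alternatives changed scaling, filter, pseudocount (0.1 and 10), limma settings, replicate block, length and GC (natural splines, 5 degrees of freedom each) and the libraries used. Plots used Python 3.11.15 and matplotlib 3.10.9.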

Additional observations from a re-analysis of the deposited data

How the results depend on the processing

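Over all tested genes, rises made up 52.7% of calls as deposited, 39.3% with median centring and 72.2% with equal column totals, where 1913 genes were lower against 3177. Among the 10 S100 genes, rises numbered 4 with quantile normalization, 4 with equal column totals and 5 with length and GC removed. The shares of rises over all genes were 24.8%, 38.4% and 23.7% in that order. Falls numbered 2 with equal column totals and 2 with length and GC removed, against 14.8% and 24.9% of all genes. With length and GC removed S100A4 turned to 0.055 and S100A10 to 0.32. S100A2, S100A13 and S100B kept direction and call under all 16 alternatives. Rises in the partner list numbered 8 with length and GC removed. Of the 32 tested EF-hand genes 3 rose with median centring, while 20.7% of all genes rose. Falls in that list numbered 8 with quantile normalization, 6 with equal column totals and 9 without trend and robust settings. The shares of falls over all genes were 25.5%, 14.8% and 22.1% in that order. The causes were not tested. Leaving out 1 library gave 1 to 2 rises and 2 to 5 falls among the S100 genes, the 2 rises without vector library 1 and the 2 falls without any of the LACTB libraries. It gave 10 to 15 rises and 8 to 10 falls among partners, and 3 to 6 rises and 8 to 16 falls among EF-hand genes. Over all genes it gave 2809 to 3873 rises (21.7% to 29.9%) and 2535 to 3468 falls (19.6% to 26.8%). With the replicate number as a block, rises among the S100 genes numbered 2, S100A16 passing (adjusted p = 0.046), while 28.4% of all genes rose. The labels tie the numbers to nothing, and deviations of same-numbered libraries correlated at 0.023, 0.182 and 0.003 for numbers 1, 2 and 3, with LACTB library 1 closest to vector library 3 (0.161), so the numbers were not taken to pair the libraries. Depth is unknown, which leaves low genes such as S100A5 without a counting error.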
